A study of Mus musculus with 24 samples.

Results

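The 8 genes described here encode neuropeptide precursors of spinal motor neurons or of their neighbours: Calca, Calcb, Uts2, Uts2b, Adcyap1, Cartpt, Penk and Tac1. They were chosen by gene name, and all 8 were found once among the 38924 genes listed in each of 24 libraries. Neuropeptides are made as long precursors that are cut in dense-core vesicles, often trimmed and amidated, and released to act on G protein-coupled receptors. Motor neurons release acetylcholine and, beside it, peptides such as calcitonin gene-related peptide (CGRP), which acts at the neuromuscular junction. Other spinal neurons use enkephalins and substance P, which are best known from the pain circuits of the dorsal horn.

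Ribosome-associated RNA came from spinal cords of mice of 8 weeks on a B6.CgxB6.129 background, by the RiboTag method, in which cells that express Cre make an HA-tagged Rpl22, so that anti-HA beads collect their ribosomes and the mRNA on them. All mice carried 1 tagged Rpl22 allele (Rpl+/-). The 4 groups of 6 mice were C201R with Cre (Rpl+/-;Chat+/-;C201R+/-), wild type with Cre (Rpl+/-;Chat+/-;C201R+/+), C201R without Cre (Rpl+/-;Chat+/+;C201R+/-) and wild type without Cre (Rpl+/-;Chat+/+;C201R+/+). C201R is a dominant mutation of Gars, the glycyl-tRNA synthetase gene, that models an inherited neuropathy of peripheral axons. Cre came from the Chat locus, so the tag marks all cholinergic cells of the cord and not motor neurons alone. Pulldowns without Cre hold RNA that came down without a tag that Cre had switched on.

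Libraries held 8.90 to 28.3 M expected counts. Mitochondrial genes took 3.03 to 15.8% of counts in C201R with Cre, 1.24 to 17.1% in wild type with Cre, and 35.2 to 55.5% without Cre. Gm26924 is an annotated gene that gathers reads of ribosomal RNA. Among pulldowns with Cre, its share had a median of 26.9% for C201R (range 8.01 to 43.3%). For wild type the median was 10.7% (range 7.45 to 30.8%). The median share was thus higher in C201R, although the ranges overlapped. Chat, the enzyme that makes acetylcholine, stood at 50.0 to 116 CPM (counts per M of scaled library total) in C201R with Cre, 51.1 to 62.0 CPM in wild type with Cre, 0.871 to 3.33 CPM in C201R without Cre and 1.602 to 8.91 CPM in wild type without Cre. The glial markers were lower with Cre, at 592 to 867 summed CPM over 12 oligodendrocyte genes in C201R with Cre against 5277 to 8051 in C201R without Cre. Libraries came in 2 runs of library numbers whose meaning the labels do not give, called library series 1 (3 C201R and 2 wild-type libraries with Cre, and 1 of each genotype without) and library series 2 (3 and 4 with Cre, and 5 of each without). The labels name a separate mouse for each library.

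Calca and Calcb each code for a CGRP. Calca is spliced either to a CGRP transcript, typical of neurons, or to a calcitonin transcript, typical of thyroid C cells, whereas Calcb makes only CGRP. Because both genes lie on chromosome 7 and are close copies in the CGRP exon, the longest stretch that their transcripts share is shown here, from the GENCODE vM21 transcripts, 5′ to 3′. The capitals mark the 18 bases that code for the ring closed by a disulphide bond near the start of the mature peptide.

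Calca-201 and Calcb-201: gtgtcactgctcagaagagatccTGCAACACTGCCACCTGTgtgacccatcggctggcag

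The shared run is 60 bases long, while the mean fragment length implied by the deposited effective lengths was 145.57 to 168.58 bases. A read inside that run could come from either gene, and the counting could divide such reads. The calcitonin transcript of Calca, Calca-202, shared no run with Calcb-201 longer than 13 bases, and Uts2 and Uts2b shared none longer than 9. In all 24 libraries the estimated counts of each of the 8 genes were whole within a tolerance of 0.005. The deposited mean transcript length of Calca was 991.95 to 992 bases in C201R with Cre and 991.99 to 992 bases in wild type with Cre. In the GENCODE annotation the CGRP transcript has 994 bases and the calcitonin transcript 830 bases, so the deposited lengths with Cre lay next to that of the CGRP transcript. Without Cre, where Calca had few counts, the deposited length went as low as 979.77 bases in C201R and 979.81 bases in wild type.

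Levels per length, in the authors' TPM (transcripts per M), ranked the genes differently in the 2 genotypes with Cre. In C201R with Cre, Uts2 (222 ± 85 TPM, SD, n = 6) and Calca (218 ± 123 TPM) led, followed by Penk (131 TPM), Cartpt (109 TPM), Calcb (62.9 TPM), Uts2b (60.4 TPM), Adcyap1 (24.4 TPM) and Tac1 (5.77 TPM). In wild type with Cre, Calca led at 825 ± 346 TPM, followed by Uts2 (268 ± 124 TPM), Calcb (157 ± 53 TPM), Cartpt (109 TPM), Penk (102 TPM), Uts2b (98.2 TPM), Adcyap1 (18.9 TPM) and Tac1 (5.89 TPM). Every pair of neighbours in both orders overlapped in range, except Uts2b and Adcyap1 in wild type. Read within each library, Calca had the highest TPM of the 8 genes in 3 of 6 C201R libraries with Cre and in 6 of 6 wild-type libraries with Cre. In the other 3 C201R libraries the first place went to Uts2 in 2 and to Penk in 1. Without Cre, Penk led both orders, at 35.5 ± 17.1 TPM in C201R and 30.6 ± 12 TPM in wild type, and was first in 6 of 6 C201R libraries and 4 of 6 wild-type libraries. Rescaling TPM without mitochondrial genes and Gm26924 left the order of means unchanged in all 4 groups.

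**Figure D1:**
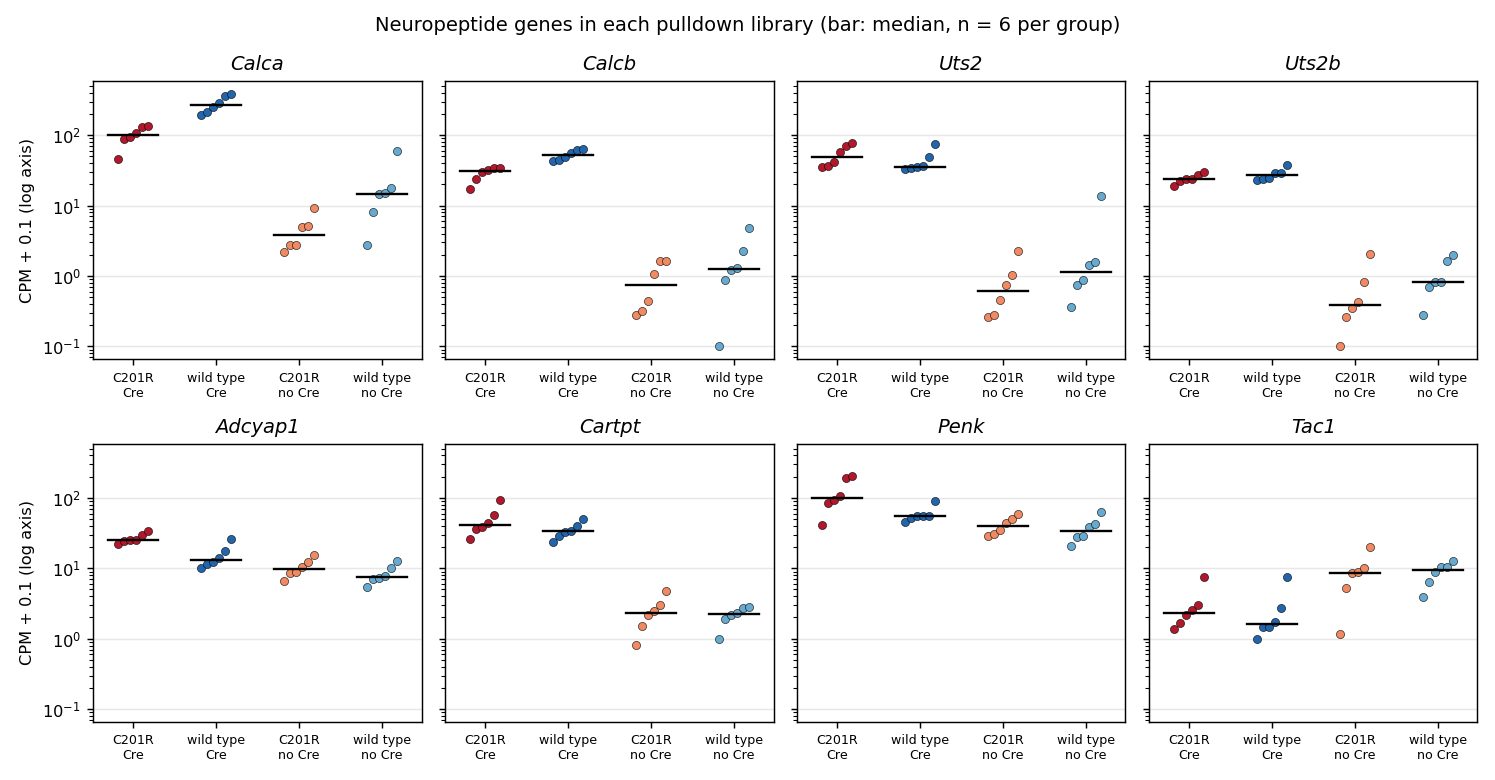
Level of each of the 8 genes in each library, as CPM + 0.1 on a log axis (CPM scaled over all 24 libraries); points are libraries, bars are medians of 6. Calca and Calcb points of C201R with Cre lie below all wild-type points with Cre, and Tac1 is the gene whose medians are lower with Cre than without.

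Pulldowns with Cre held far more RNA of the CGRP, urotensin and CART genes than pulldowns without Cre. Genes were tested with edgeR's quasi-likelihood F test, and called where the Benjamini-Hochberg adjusted p over all genes tested was under 0.05. In C201R, 7 of the 8 genes were higher with Cre and Tac1 was lower, against a background of 30.5% of all genes higher and 26.3% lower (56.8% called in all). In wild type, 6 were higher and Tac1 was lower, against 27.7% of all genes higher and 32.8% lower (60.6% called in all).

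The urotensin genes code for urotensin II (Uts2) and urotensin II-related peptide (Uts2b), cyclic peptides known to be made by cholinergic motor neurons of the brainstem and cord. Uts2 had 35.7, 49.2 and 77.0 CPM (lowest, median, highest) in C201R with Cre and 0.161, 0.507 and 2.17 CPM in C201R without Cre. In wild type it had 32.9, 35.7 and 74.6 CPM with Cre and 0.266, 1.05 and 13.8 CPM without. The groups did not overlap in either genotype, and the log2 differences with Cre over without were 5.96 ± 0.47 in C201R (SE, edgeR adjusted p = 4.68e-08) and 3.63 ± 0.90 in wild type (adjusted p = 0.00541). The highest library without Cre was wild-type mouse 14702-6, and without it the wild-type difference was 5.47. Uts2b rose with Cre by 5.26 ± 0.54 in C201R (adjusted p = 4.77e-07) and by 4.66 ± 0.38 in wild type (adjusted p = 9.92e-08), on the log2 scale. Its levels without Cre reached no more than 1.95 CPM in C201R mice and 1.88 CPM in wild type, which is 27 counts or fewer in any library.

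The CGRP genes were enriched as well. Calca was higher with Cre by 4.58 ± 0.38 on the log2 scale in C201R (SE, edgeR adjusted p = 8.43e-08) and by 3.72 ± 0.65 in wild type (adjusted p = 0.000657). Calcb was higher by 5.12 ± 0.45 in C201R (adjusted p = 6.82e-08) and by 4.84 ± 0.60 in wild type (adjusted p = 2.65e-05). Neither gene's groups overlapped in either genotype. Sensory neurons of the dorsal root ganglia also make CGRP, and 9 of their markers summed to 2.43 to 8.49 CPM in C201R with Cre, 1.53 to 14.2 CPM in wild type with Cre, 1.42 to 49.0 CPM in C201R without Cre and 3.07 to 38.8 CPM in wild type without Cre. The sum lay above Calca in 0 of 12 libraries with Cre and in 5 of 6 C201R and 3 of 6 wild-type libraries without Cre, and no marker was at 0 in every library of a group. With Cre over without in C201R, 1 of 3 sensory markers tested was higher and 1 lower, beside 30.5% and 26.3% of all genes. In wild type, 0 of 4 were higher and 1 lower, beside 27.7% and 32.8% of all genes. Of the 4 sensory markers tested between genotypes with Cre, 0 were called, with P2rx3 at 1.61 ± 0.49 (edgeR adjusted p = 0.083).

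Cartpt codes for the CART peptides, which several spinal and brain neurons make. It had 26.0, 41.3 and 94.6 CPM in C201R with Cre and 0.701, 2.22 and 4.62 CPM in C201R without Cre, and 23.2, 33.3 and 49.5 CPM in wild type with Cre and 0.891, 2.12 and 2.75 CPM in wild type without Cre. The groups did not overlap, with log2 differences of 4.12 ± 0.39 in C201R (SE, edgeR adjusted p = 1.63e-07) and 3.92 ± 0.29 in wild type (adjusted p = 4.62e-08).

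The remaining genes were weakly enriched or depleted. Adcyap1, the precursor of the pituitary adenylate cyclase-activating polypeptide PACAP, was higher with Cre by 1.42 ± 0.25 in C201R (SE, edgeR adjusted p = 0.000122), where the groups did not overlap, and by 0.71 ± 0.29 in wild type (adjusted p = 0.0414), where they did. Penk, the precursor of the enkephalins, was higher by 1.16 ± 0.30 in C201R (adjusted p = 0.00309), while its 0.50 ± 0.26 in wild type did not pass the test (adjusted p = 0.102). That difference passed in 2 of 12 fits that each left out 1 library (0.22 to 0.70) and in 3 of 10 other alternatives, up to 1.43 with library totals only (adjusted p = 0.000149). Library totals also moved the median of all genes in the wild-type comparison from -0.10 to 0.84. Tac1, the precursor of substance P, fell by 1.88 ± 0.50 on the log2 scale in C201R (adjusted p = 0.00387) and fell by 2.30 ± 0.45 in wild type (adjusted p = 0.000427). Its groups overlapped in both genotypes, with 0 of 6 C201R libraries and 5 of 6 wild-type libraries with Cre below all those without. The call for Adcyap1 in wild type held in 5 of 12 fits that each left out 1 library. Without Cre, the medians were 9.51 CPM (Adcyap1), 39.7 CPM (Penk) and 8.60 CPM (Tac1) in C201R and 7.52, 33.7 and 9.46 CPM in wild type. Tac1 counts without Cre were low, at 15 to 125 in C201R and 43 to 153 in wild type.

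**Figure D2:**
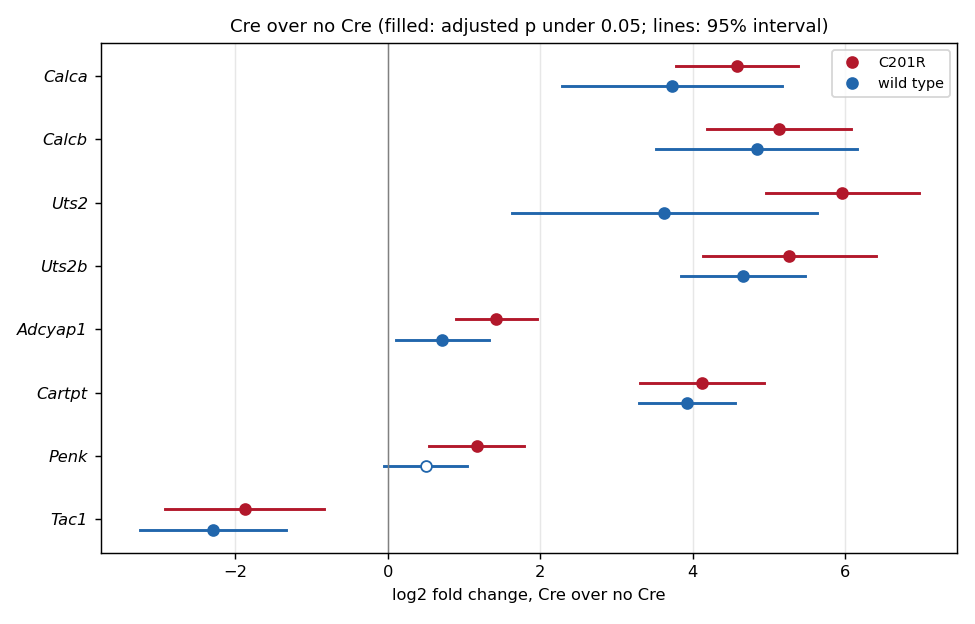
Log2 fold change of pulldowns with Cre over pulldowns without Cre for the 8 genes in C201R (red, upper) and wild type (blue, lower), with 95% intervals; filled points passed the test at an adjusted p under 0.05. The CGRP, urotensin and CART genes lie between 3.63 and 5.96, and Tac1 lies below 0.

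Among pulldowns with Cre, both CGRP genes were lower in C201R and Adcyap1 was higher, while the other 5 genes did not pass the test. Of the 8 genes, 1 was called higher and 2 were called lower, against a background of 2.29% of 14634 genes higher and 1.82% lower (4.11% called in all). The median log2 difference of the 8 genes was 0.17, and that of all genes tested was -0.01. In bulk pulldowns, fewer cells of a type and less RNA per cell cannot be told apart.

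Calca had 45.2, 100.04 and 136 CPM (lowest, median, highest) in C201R with Cre and 196, 268 and 389 CPM in wild type with Cre. All 6 C201R libraries lay below all 6 wild-type libraries. The log2 difference was -1.47 ± 0.24 (SE, edgeR adjusted p = 0.00304), which puts C201R at 0.362 of the wild-type level. The lowest library was C201R mouse 14003-1, which also had the highest Gm26924 share, and without it the difference was -1.34 (adjusted p = 0.000786). Calcb showed the same direction, at 16.98, 30.6 and 34.4 CPM in C201R with Cre and 43.0, 52.2 and 63.1 CPM in wild type with Cre. Its groups did not overlap either, and the log2 difference was -0.88 ± 0.17 (adjusted p = 0.0125), or 0.544 of the wild-type level.

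Both CGRP genes were lower in C201R under every alternative tried, but their calls did not hold under all of them. Within library series 2, with 3 C201R and 4 wild-type libraries, Calca stood at -1.30 (edgeR adjusted p = 0.000461) and Calcb at -0.79 (adjusted p = 0.00431). Within library series 1, with 3 and 2, they stood at -1.69 and -0.98, where 1 of all genes tested was called (adjusted p = 1 for both). With the Gm26924 share as a covariate Calca was at -1.15 (adjusted p = 0.102) and Calcb at -0.73 (adjusted p = 0.167). That share had a higher median in C201R (26.9%) than in wild type (10.7%), so the covariate partly ran with genotype. With library totals in place of the scaling, which moved the median of all genes to -0.26, Calca was at -1.75 (adjusted p = 0.0845) and Calcb at -1.13 (adjusted p = 0.295). Without wild-type mouse 14002-6, Calcb was at -0.80 (adjusted p = 0.0544). Both calls were also lost with the leading digits of the mouse number fitted as a replicate block. Calca was then at -1.355 (adjusted p = 0.0832) and Calcb at -0.78 (adjusted p = 0.177). Libraries with Cre that share these digits deviated together more than other pairs (median r of 0.30 against 0.03). The reported fits do not allow for this.

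Set against Chat in the same library, a ratio that no scaling touches, the CGRP genes were again lower. Calca had 0.388, 1.63 and 2.27 counts per Chat count in C201R with Cre and 3.66, 4.49 and 6.31 in wild type with Cre. Calcb had 0.146, 0.458 and 0.595 counts per Chat count in C201R and 0.755, 0.910 and 1.02 in wild type. The groups did not overlap for either gene. A ratio within a library shows unequal change of its 2 genes, and Chat itself did not pass the test between genotypes (0.24 ± 0.17, adjusted p = 0.512).

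Calca counts per Calcb count were lower in most C201R libraries. There were 2.58, 3.73 and 4.16 Calca counts per Calcb count in C201R with Cre and 4.03, 5.29 and 6.36 in wild type with Cre, and 5 of 6 C201R libraries lay below all wild-type libraries. The highest C201R value overlapped the lowest wild-type value. Over the urotensin pair the ratio of Uts2 to Uts2b counts was 1.49, 2.13 and 2.83 in C201R and 1.24, 1.42 and 2.06 in wild type, with overlapping groups.

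**Figure D3:**
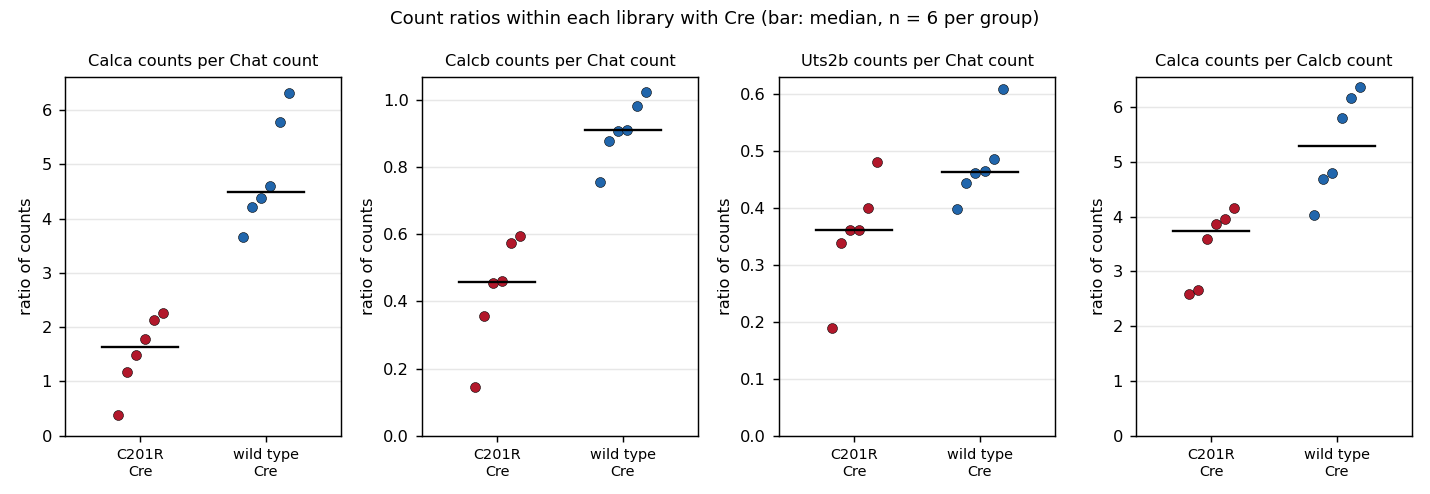
Ratios of counts within each library with Cre, for C201R (left in each panel) and wild type (right); points are libraries and bars are medians of 6. Calca and Calcb per Chat count do not overlap between the genotypes, whereas Uts2b per Chat count and Calca per Calcb count do.

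Markers of motor neurons did not move together between genotypes. Of 10 cholinergic and motor neuron markers tested, 0 were higher and 2 lower, with a median log2 difference of 0.03. The called genes were Chodl, a marker of fast motor neurons (-1.02 ± 0.14, edgeR adjusted p = 0.000635), and Ahnak2 (-0.85 ± 0.13, adjusted p = 0.00175). Among markers not called, mean CPM with Cre was higher in C201R than wild type for Chat (73.7 against 57.8), Mnx1 (13.8 against 9.34), Isl1 (9.76 against 8.63) and Prph (322 against 282). It was lower for Slc5a7 (433 against 438), Isl2 (4.78 against 5.98), Slc10a4 (145 against 155) and Ret (147.5 against 206). The 11 markers measured summed to 1273 to 1969 CPM in C201R with Cre and 1445 to 2642 CPM in wild type with Cre. Ahnak2 (mean 382.5 against 726 CPM) and Chodl (195 against 415 CPM) weigh heavily in these sums. The list had no marker at 0 in every library of a group, and its part in the CGRP result was not tested. Of the 12 oligodendrocyte, 12 astrocyte and 8 microglia markers tested, 0 were called between genotypes with Cre, with median log2 differences of -0.18, -0.19 and 0.55. The 13 microglia markers measured summed to 25.2, 30.5 and 48.5 CPM (lowest, median and highest) in C201R with Cre and 13.9, 19.1 and 47.4 CPM in wild type with Cre, and their part in the results was not tested.

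PACAP is a peptide of neurons that is induced by nerve injury in several systems. Adcyap1 had 21.96, 25.4 and 34.3 CPM in C201R with Cre and 9.85, 13.01 and 25.7 CPM in wild type with Cre. The groups overlapped through wild-type mouse 14004-6, at 25.7 CPM, so that 2 of 6 C201R libraries lay above all wild-type libraries. The log2 difference was 0.85 ± 0.22 (SE, edgeR adjusted p = 0.0447), or 1.80-fold. This call lay close to the threshold: it held in 2 of 12 fits that each left out 1 library, at differences of 0.75 to 1.05, and was lost within library series 2 (0.88, adjusted p = 0.115), within series 1 (0.82, adjusted p = 1), without a series term (0.83, adjusted p = 0.0679), with the Gm26924 covariate (0.89, adjusted p = 0.246) and with library totals (0.56, adjusted p = 0.544). The call was also lost with the block for the leading digits of the mouse number (0.98, adjusted p = 0.279). Adcyap1 counts per Chat count were 0.189, 0.438 and 0.570 in C201R and 0.159, 0.242 and 0.451 in wild type, with overlapping groups.

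The urotensin and CART genes did not pass the test between genotypes. Uts2 had 35.7, 49.2 and 77.0 CPM in C201R with Cre and 32.9, 35.7 and 74.6 CPM in wild type with Cre, a log2 difference of 0.20 ± 0.18 (95% interval -0.17 to 0.58, edgeR adjusted p = 0.591). Uts2b had 18.8, 24.04 and 30.0 CPM in C201R and 22.7, 26.7 and 37.5 CPM in wild type, a difference of -0.21 ± 0.15 (95% interval -0.54 to 0.11, adjusted p = 0.49). The 95% intervals of both urotensin genes lay above that of Calca, which ran from -1.97 to -0.96. That of Calcb ran from -1.25 to -0.50, so it lay below that of Uts2 but overlapped that of Uts2b. Cartpt differed by 0.37 ± 0.23 (95% interval -0.11 to 0.86, adjusted p = 0.414), with its highest library, at 94.6 CPM, in C201R mouse 14003-4.

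Penk and Tac1, chosen as peptide genes of other spinal neurons, did not pass the test either. With Cre over without, Penk was at 1.16 in C201R and 0.50 in wild type on the log2 scale. The tested markers of other spinal neurons had medians of -1.26 and -1.385 there. Penk had 40.7, 100.35 and 201.9 CPM in C201R with Cre and 45.3, 54.9 and 89.1 CPM in wild type with Cre. In C201R, 4 of 6 libraries lay above all wild-type libraries and 1 lay below them all. The log2 difference was 0.80 ± 0.24 (SE, edgeR adjusted p = 0.0763), and it was 0.51 within library series 2 (adjusted p = 0.245) and 1.26 within series 1 (adjusted p = 1). The highest C201R libraries were mice 14003-4 (201.9 CPM) and 14003-1 (190 CPM), both of library series 1. These same libraries held the highest sums of 14 markers of other spinal neurons, at 400 and 396 CPM, in a range of 219 to 400 CPM in C201R with Cre and 169 to 257 CPM in wild type with Cre. Of 11 such markers tested, 1 was higher, Calb2, a calcium-binding protein of interneurons (0.73 ± 0.18, adjusted p = 0.0365), with a list median of 0.27 and no marker at 0 throughout a group. Their part in the Penk values was not tested.

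Tac1 was near the lower end of what these libraries resolve, with 1.29, 2.25 and 7.36 CPM in C201R with Cre (7 to 127 counts) and 0.896, 1.50 and 7.52 CPM in wild type with Cre (29 to 93 counts). The groups overlapped fully, and the log2 difference was 0.13 ± 0.47 (95% interval -0.87 to 1.13, edgeR adjusted p = 0.919).

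**Figure D4:**
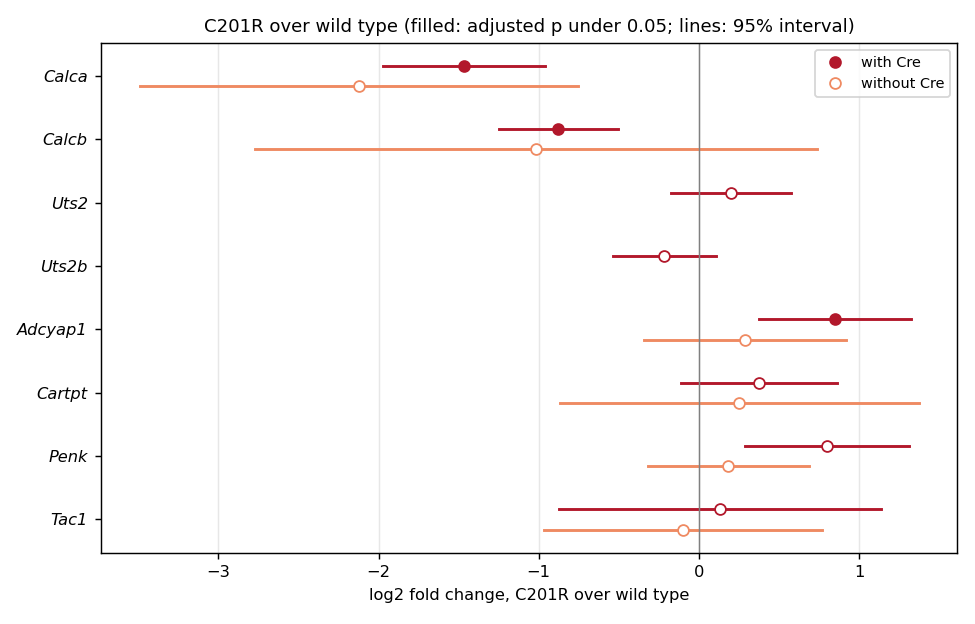
Log2 fold change of C201R over wild type for the 8 genes, with Cre (red, upper) and without Cre (orange, lower), with 95% intervals; filled points passed the test at an adjusted p under 0.05. Calca (-1.47), Calcb (-0.88) and Adcyap1 (0.85) are filled with Cre, none is filled without Cre, and Uts2 and Uts2b were too low without Cre to be tested.

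Without Cre, the same genotype comparison measures untagged background. Of 14400 genes tested 0% were called (455 had an unadjusted p under 0.05), and 6 of the 8 peptide genes were tested with 0 called, of which Calca had an unadjusted p under 0.05 (0.00532). DESeq2 called 2 genes and limma-voom 1, none of them among the 8. Calca had 2.07, 3.75 and 9.22 CPM in C201R without Cre and 2.66, 14.7 and 60.5 CPM in wild type without Cre, a log2 difference of -2.12 ± 0.63 that did not pass the test (edgeR adjusted p = 1). Without wild-type mouse 14702-6, the highest library, it was -1.39. Motor neuron markers ran in the same direction here, summing to 99.0 to 163 CPM in C201R without Cre and 132 to 484 CPM in wild type without Cre, the highest again in mouse 14702-6, and their part in the Calca values was not tested.

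The interaction tests whether the genotype difference itself differs with and without Cre. It called 0.13% of 16109 genes and 0 of the 8, with none called by limma-voom or, apart from Uts2, for which it gave no adjusted p, by DESeq2. For Calca it was 0.67 ± 0.71 (edgeR adjusted p = 0.823) and for Calcb 0.11 ± 0.69 (adjusted p = 0.976), so the fall of the CGRP genes with Cre was not shown to differ from their values without Cre. Uts2 had the lowest p of the 8, at 2.22 ± 0.99 (unadjusted p = 0.037, adjusted p = 0.502), and 0.31 without mouse 14702-6. At these low counts without Cre the standard errors of the interaction were 0.37 to 0.99.

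Most listed genes that make and store peptides were more abundant with Cre, the enzymes unevenly, and 3 were higher in C201R. The list held 20 genes of prohormone cleavage, peptide trimming and dense-core vesicles. With Cre over without, 16 were higher and 1 lower in C201R, beside 30.5% and 26.3% of all genes. In wild type 13 were higher and 2 lower, beside 27.7% and 32.8% of all genes. In C201R, mean CPM with Cre and without was 71.4 and 43.3 for Pcsk2, 495.5 and 459 for Cpe, and 34.9 and 36.4 for Pam. In wild type it was 79.4 and 44.6 for Pcsk2, 369 and 466 for Cpe, and 38.3 and 33.4 for Pam. Between the genotypes with Cre, 3 of 20 were higher and 0 lower, beside 2.29% and 1.82% of all genes. The median log2 difference was 0.25. Scg2, a granin of the vesicle core that also yields secretoneurin, averaged 301 ± 75 CPM in the C201R libraries and 186 ± 24 CPM in wild type (SD, n = 6), a log2 difference of 0.63 ± 0.14 (SE, edgeR adjusted p = 0.0198). Vgf, a granin induced by neurotrophins, averaged 74.4 ± 30.6 CPM in C201R mice and 37.7 ± 11.1 CPM in wild type (0.81 ± 0.18, adjusted p = 0.0215). Scg5, or 7B2, the chaperone of the prohormone convertase Pcsk2, averaged 65.1 ± 22.5 CPM in C201R mice and 37.1 ± 3.1 CPM in wild type (0.68 ± 0.16, adjusted p = 0.034). The enzymes themselves did not pass the test, with Pcsk2 at -0.16 ± 0.13, Pcsk1 at 0.57 ± 0.31, the carboxypeptidase Cpe at 0.39 ± 0.12 and the amidating enzyme Pam at -0.14 ± 0.15.

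Receptors of these peptides differed widely in level and in enrichment with Cre. Of 15 receptor and receptor-subunit genes 11 passed the filter on low counts, with 1 higher, 0 lower and a median log2 difference of -0.37 between genotypes with Cre. The gene called was Adcyap1r1, the PACAP-preferring receptor PAC1, at 56.9 ± 5.1 CPM in C201R mice and 43.7 ± 6.6 CPM in wild type (SD, n = 6), a log2 difference of 0.44 ± 0.11 (SE, edgeR adjusted p = 0.0421). It was not enriched with Cre, at 0.0047 ± 0.16 in C201R (adjusted p = 0.982), and fell by 0.47 ± 0.16 on the log2 scale in wild type (adjusted p = 0.0168). Calcrl, the CGRP receptor core, averaged 1.36 ± 0.79 CPM in C201R with Cre, 1.31 ± 1.28 CPM in wild type with Cre, 7.80 ± 2.86 CPM in C201R without Cre and 7.91 ± 3.12 CPM in wild type without Cre, so it was lower with Cre in C201R (-2.23 ± 0.64, adjusted p = 0.00636) and in wild type (-3.39 ± 0.47, adjusted p = 1.41e-05). The urotensin receptor Uts2r averaged below 1 CPM in every group and was not tested between genotypes. The substance P receptor Tacr1 was higher with Cre by 1.82 ± 0.32 in C201R (adjusted p = 0.000127) and 2.14 ± 0.33 in wild type (adjusted p = 4.64e-05), unlike its ligand's gene Tac1. Vipr2, the receptor VPAC2 for PACAP and vasoactive intestinal peptide, averaged 22.04 ± 5.84 CPM in C201R with Cre and 37.0 ± 12.9 CPM in wild type with Cre (SD, n = 6). It was higher with Cre by 3.06 ± 0.42 in C201R (adjusted p = 9.48e-06) and by 3.76 ± 0.48 in wild type (adjusted p = 1.36e-05), and its -0.61 ± 0.24 between genotypes with Cre did not pass the test (adjusted p = 0.185).

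Of 19 other peptide precursors, 11 passed the filter, with 1 higher, 0 lower and a median log2 difference of 0.37 between genotypes with Cre. The gene called was Adm2, which codes for intermedin, a relative of CGRP that shares its receptor core. It had 53 to 181 counts in each C201R library with Cre and 0 counts over all wild-type libraries with Cre, and was thus at least 318-fold higher in C201R when wild type is set at a floor of 3 counts over the group. Within the CGRP family the genes with Cre therefore went both ways, with Adm2 higher and Calca and Calcb lower in C201R. Sst, the somatostatin precursor, averaged 145 ± 83 CPM in C201R mice and 70.6 ± 46.5 CPM in wild type, a difference of 0.77 ± 0.23 that did not pass the test (edgeR adjusted p = 0.0793).

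**Figure D5:**
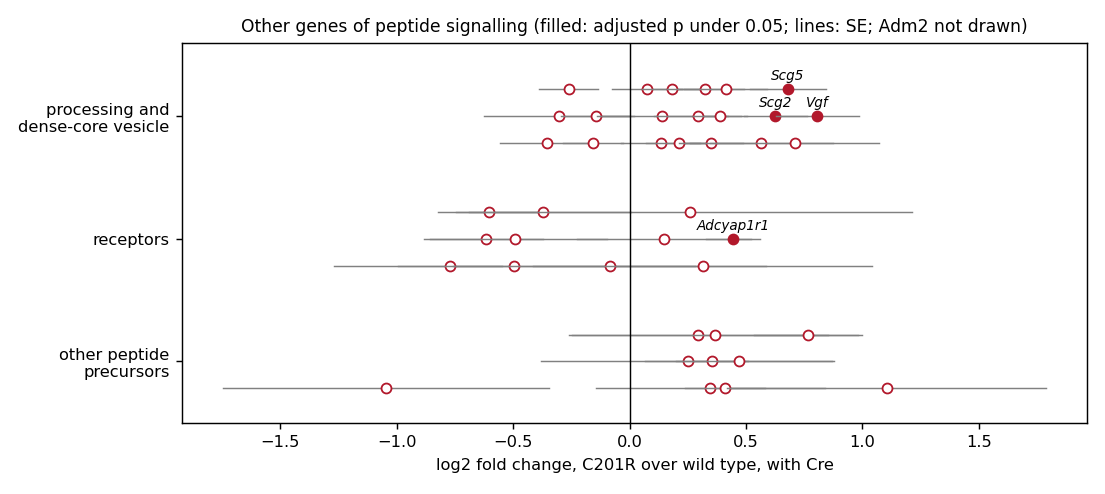
Log2 fold change of C201R over wild type with Cre for each tested gene of 3 lists (processing and dense-core vesicle genes, receptors, other peptide precursors), with its SE; filled points passed the test at an adjusted p under 0.05, and Adm2, at 0 counts in wild type, is not drawn. Scg2, Vgf and Scg5 (0.63 to 0.81) and Adcyap1r1 (0.44) are filled.

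The genes most like each peptide gene were sought over the 12 libraries with Cre, by Pearson's r of log2(CPM + 1) among 8386 genes with a mean of at least 5 CPM. These libraries fall into the 2 genotypes, so values within each genotype of 6 are given too, as a description. Calca was closest to P2rx5, a purinergic receptor subunit (r = 0.987 over 12 libraries, 0.994 within C201R and 0.873 within wild type), then to Edil3 (0.962, 0.875 and 0.808) and Calcb (0.956, 0.873 and 0.768). P2rx5 was itself lower in C201R (-1.04 ± 0.24, edgeR adjusted p = 0.0248), as was Edil3 (-1.03 ± 0.16, adjusted p = 0.00227). Calcb was closest to Calca, then to the serotonin receptor gene Htr2c (0.954, 0.977 and 0.473) and the histone gene Hist1h2bc (0.949, 0.875 and 0.642).

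The other genes had neighbours of their own. Uts2 was closest to Med29 (r = 0.922), Uts2b to the secreted phosphoprotein gene Spp1 (0.884), Adcyap1 to Gtf2a1 (0.904) and Tac1 to Tctex1d2 (0.875). Cartpt was closest to Pnck (0.957, with 0.966 within C201R and 0.933 within wild type), and Penk to the ribosomal protein gene Rpl13 (0.973, with 0.974 and 0.865) and the tubulin gene Tubb3 (0.967, with 0.971 and 0.856). None of these 7 neighbours passed the test between genotypes. The third gene for Adcyap1, the haem oxygenase gene Hmox1, did (1.21 ± 0.28, edgeR adjusted p = 0.0271), and its r of 0.875 over 12 libraries stood beside -0.595 within C201R and 0.74 within wild type. Among the 8 genes, Uts2 and Uts2b followed each other within C201R (r = 0.804) and within wild type (0.729), and Calca and Uts2 less closely (0.355 and 0.39). The urotensin pair was not set apart by this. Uts2b had 0.415 and 0.845 with Calca, 0.604 and 0.881 with Calcb, and 0.967 and -0.137 with Cartpt. Each value rests on 6 libraries.

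Promoter windows of 250 bases before to 50 bases after the start of transcription were read from the RefSeq table of GRCm38.p6, which held 6 of the 8 genes in 7 windows. Windows of Calca and Adcyap1 are shown because these genes were called between genotypes in opposite directions, and that of Cartpt because it alone held a full cAMP response element, the site bound by CREB and its relatives, here in capitals. In the Adcyap1 window, which is the downstream one of 2, the capitals mark the letters TATAAA, 58 bases before the start.

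Calca (chr7:114636308-114636607, minus strand): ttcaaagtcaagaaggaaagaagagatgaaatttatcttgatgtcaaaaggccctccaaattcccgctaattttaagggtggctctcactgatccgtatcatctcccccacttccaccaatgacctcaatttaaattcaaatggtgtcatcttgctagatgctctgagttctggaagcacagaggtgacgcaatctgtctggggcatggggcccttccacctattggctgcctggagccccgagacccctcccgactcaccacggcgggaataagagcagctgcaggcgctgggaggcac
Adcyap1 (chr17:93198918-93199217, plus strand): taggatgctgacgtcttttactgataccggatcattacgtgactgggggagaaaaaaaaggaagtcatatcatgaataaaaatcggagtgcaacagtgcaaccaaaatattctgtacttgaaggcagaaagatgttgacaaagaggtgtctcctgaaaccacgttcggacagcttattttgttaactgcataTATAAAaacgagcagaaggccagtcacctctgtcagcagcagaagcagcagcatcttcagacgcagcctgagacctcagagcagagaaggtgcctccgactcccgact
Cartpt (chr13:99900634-99900933, minus strand): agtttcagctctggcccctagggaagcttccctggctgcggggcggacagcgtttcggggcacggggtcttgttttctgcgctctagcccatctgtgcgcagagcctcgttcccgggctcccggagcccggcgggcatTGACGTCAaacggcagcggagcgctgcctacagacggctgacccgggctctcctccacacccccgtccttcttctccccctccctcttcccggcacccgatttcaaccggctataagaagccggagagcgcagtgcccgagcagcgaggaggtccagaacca

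Each motif was sought on both strands. The full element TGACGTCA was present in the Cartpt window, 112 bases before the start, and in 1.79% of all 32851 windows of this length. Its TGACG part, which the full element contains, was in 1 place in the Calca window and in 20.8% of all windows. Each Adcyap1 window had 1 match, which is the same site because these windows overlap. Tac1 had 2 matches, and the 2 matches in Cartpt are the 2 strands of its full element. The C/EBP-ATF element TGATGNAA was in the Uts2 window alone, against 3.97% of all windows. The letters TATAAA were in the windows of Uts2 and Uts2b and the downstream window of Adcyap1, against 13.6%, and the E-box CANNTG in those of Calca, Tac1, Cartpt and Uts2b, against 72.3%. A match describes the letters of the window and says nothing of binding in these mice.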

How the data were processed

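The 8 genes and the gene lists were chosen with earlier results of these data known. The deposited files give expected counts and TPM per gene and library, made by the authors with Bowtie2 2.2.0 and RSEM 1.2.12, per the submitters' processing notes; build and annotation are not given in the sources used here. Deposited transcript lengths are in bases, weighted by estimated abundance. Expected counts were rounded to whole numbers. Each comparison of a pair of groups used its 12 libraries, and the interaction all 24, in edgeR 4.0.16 (R 4.3.3): filterByExpr, TMM scaling, robust quasi-likelihood F test, library series as a term, Benjamini-Hochberg adjustment over all genes tested. Standard errors are the log2 difference over the square root of F. Printed CPM are TMM-scaled over all 24 libraries. The tests were also run on simulated counts of independent libraries with the same spread for all genes. That simulation held no library series, shared mouse digits or differing Gm26924 share, so it does not speak to these. Of the listed genes, Slc18a3 and Drgx are not analysed here. Named genes are the 8 members, up to 4 called genes per list with a mean of at least 2 CPM (otherwise its 2 most abundant), and for each member the 3 genes of highest r; further receptors, enzymes and Sst were added for their role after their values were seen. The differences of the 8 genes and the numbers of all genes called were recomputed under alternatives. These were DESeq2 1.42.0, limma-voom (limma 3.58.1), RLE scaling or library totals, other filters, covariates, subsets and leaving out each library. Calls of named genes beyond the 8 were not followed through these alternatives. All pairs of libraries of a group differed by more than sampling noise.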

Additional observations from a re-analysis of the deposited data

Results flagged for a closer look

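In 6 of 32 sets of 6 values (8 genes in 4 groups), 1 library stood apart from the others by Dixon's criterion, which chance meets in about 1 set in 20. With Cre, Tac1 was at 7.36 CPM in C201R mouse 14003-4 and at 7.52 CPM in wild-type mouse 14701-9, and Penk was at 89.1 CPM in the same wild-type mouse. Mouse 14701-9 also had the highest oligodendrocyte sum with Cre (1156 CPM over 12 markers) and the highest mitochondrial share with Cre (17.1%). Without Cre, Calca was at 60.5 CPM and Uts2 at 13.8 CPM in wild-type mouse 14702-6, which also held the highest sum of motor neuron markers without Cre (484 CPM). Uts2b was at 1.95 CPM in C201R mouse 14003-3 without Cre. The part of these measures in the values was not tested.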

How the results depend on the processing

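For C201R over wild type with Cre, the 3 calls among the 8 genes became 0 with library totals only, with a replicate block for the first 5 digits of the mouse number, with the Gm26924 covariate and within library series 1 (added after seeing the data), and ranged from 1 to 3 when each library was left out, the lowest without wild-type mouse 14002-6. The cause was not tested, although series 1 holds only 5 libraries. All genes called numbered 601 as reported, 1344 with DESeq2, 2004 with limma-voom, 32 with library totals, 75 with the block, 122 with the covariate, 291 without a series term, 1370 within series 2, 1950 without mice 14003-1 and 14701-9, and 170 to 936 when each library was left out. Calca kept its direction in all 25 alternatives (-1.75 to -1.15) and its call in all 12 that left out 1 library and in 9 of 13 others; Calcb (-1.13 to -0.73) lost its call in 1 of 12 and 4 of 13. Under the block Calca was at -1.36 (edgeR adjusted p = 0.0832), Calcb at -0.78 (0.177) and Adcyap1 at 0.98 (0.279). With Cre, the 6 pairs of libraries that share these digits deviated together with r of -0.01 to 0.60. Their median was 0.30, against 0.03 for other pairs. Without Cre, r was -0.22 to 0.15 over 10 such pairs (median 0.016, against 0.0070). Not every pair was over 0.1, and the reported fits left the digits out. Those fits therefore do not allow for shared deviation with Cre, and the 3 calls were lost when the digits were fitted. Penk passed the test with DESeq2 (adjusted p = 0.0166) and without C201R mouse 14004-2 (0.0186).

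Over all 5 comparisons, 121 recomputed counts of calls among the 8 genes stayed within 1.5 times and 5 fell; of the single differences 894 kept direction and side of the threshold, 36 lost the call, 7 gained it and 24 changed sign. Of the gains, 5 were Penk with Cre over without in wild type, and the block ended the call of Tac1 with Cre over without in C201R (-1.39, adjusted p = 0.133). No called difference changed sign. Among differences that had not passed the test, with Cre Uts2 was at -0.080 with library totals, and Tac1 at -0.045 with the covariate, -0.14 within series 1 and -0.14 to 0.66 with libraries left out. Without Cre, Tac1 was at 0.030 without a series term, 0.059 with the block and -0.26 to 0.15 with libraries left out, and Cartpt at -0.22 with the block and -0.050 to 0.46. In the interaction, library totals gave -0.10 for Calcb and -0.081 for Cartpt, series 2 gave -0.091 for Uts2b, and leaving out libraries gave -0.11 to 1.03 for Calca, -0.64 to 0.43 for Calcb, -0.10 to 1.24 for Uts2b, -0.034 to 0.53 for Cartpt and -0.054 to 0.59 for Tac1. DESeq2 gave no adjusted p for Uts2 with Cre over without in wild type and in the interaction, nor for Tac1 between genotypes with Cre. Depth limits Tac1 with Cre and Calcb, Uts2 and Uts2b without Cre most.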
